A study of Mus musculus with 4 samples.

Results

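The comparison described here set 1 expression array of mouse melanocytes carrying a construct against Miz-1 beside 1 array of the cells it was made from, both after EGF. Its members were defined by label, though chosen with earlier results of these data known. The comparison was the array titled as Hmhi-Miz1 kd with EGF, minus the array titled as Hmhi with EGF. It covered every probe set that the platform annotation ties to a single gene. That gave 2 of the 4 arrays of the series and 18193 genes, of which 11394 read at or above the array median on at least 1 of the 2 arrays and entered the counts below. Melan-a is an established line of pigmented mouse melanocytes, which is grown with a phorbol ester (TPA) and cholera toxin. All 4 cultures were melan-a Hmhi cells or were made from them, and all were kept for 14 days in medium with dialyzed serum, called starved in the labels. The Hmhi EGF array, the array labelled Miz1 kd (also labelled Hmhi-pS-Miz1) and the MYC-TA array received EGF at 100 ng/ml in addition, and the fourth, Hmhi starved, did not. The labels spell out neither Hmhi nor MYC-TA, give no promoter for the constructs and do not say whether a line was 1 clone.

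Miz-1 is a zinc finger transcription factor encoded by Zbtb17. It activates genes near whose start sites it binds, and MYC, by binding to it, can turn it into a repressor of growth-arrest genes such as Cdkn2b and Cdkn1a. The series title links this pair to melanocyte senescence and to cystathionase, the enzyme encoded by Cth. The comparison asks what the construct changed in cells that all received EGF. With 1 array a side there was no replicate error, so nothing here was tested. The error at hand was technical, an SD of 0.22 between probe sets of the same gene for this difference, and having so few arrays limits how precise any value can be. Levels are log2 signals, and 4 levels in a row are in the order Hmhi starved, Hmhi EGF, the array labelled Miz1 kd and MYC-TA. Differences are the array labelled Miz1 kd minus Hmhi EGF on that log2 scale unless another pair is named. In bulk RNA, fewer cells of a type and less RNA per cell cannot be told apart.

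The target gene came first as a check of the labels, and its transcript was not reduced. The brighter of 2 Zbtb17 probe sets read 8.73, 8.72, 9.07 and 8.71, and the dimmer 6.50, 6.50, 6.72 and 6.78. The labelled knockdown thus had the highest level of the 4 on the first set, by 0.35 over Hmhi EGF, and was 0.22 above it on the second. Miz-1 protein is not measured by these arrays. Every direction below is that of the array as labelled, and none is tied to a loss of Miz-1. The 2 arrays shared a median of 6.66 and correlated at r of 0.9896 over probe sets. All 24 spiked poly-A control sets were lower in the labelled knockdown, by a median difference of -0.23, as were all 3 sets of 18S rRNA, with a median of -0.31, while the 18 hybridization controls had a median of 0.02. The part of these control differences in the results below was not tested.

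The melanocyte identity of both cultures was visible in their markers. Of 8 melanocyte markers, 7 read above the array median in Hmhi EGF and 6 in the array labelled Miz1 kd, with summed log2 levels of 80.70 and 77.19. Sox10 read 13.22, 13.21, 13.37 and 12.96, and Mitf, the master regulator of the lineage, 10.81, 9.91, 9.96 and 9.65. Tyr, which encodes tyrosinase, was below the median on every array, at 5.63 in Hmhi EGF and 5.08 in the array labelled Miz1 kd. Fibroblast markers above the median numbered 5 of 10 and 4 of 10, with sums of 74.08 and 71.57. The immune list had 4 of 7 measured markers above it on both, the keratinocyte list 2 of 6 on both, and the endothelial list 0 and 2 of 6. Since each array has a background signal, no marker is at 0 on this scale.

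The difference ran mostly one way. Of the 11394 genes, 285 (2.5%) were at least 2-fold lower on the Miz1 kd side and 33 (0.29%) at least 2-fold higher. At 1.5-fold the counts were 796 (6.99%) and 245 (2.15%). At least 4-fold apart were 77 lower genes and 1 higher gene, and at least 16-fold apart 11 lower genes and no higher one. The median difference was 0.018, the quartiles were -0.20 and 0.20, and 87.2% of genes lay within 0.5 of 0. The sorted values of the deposited columns lay within 0.004 of each other, so a median near 0 was given in advance. A shift common to all genes could not be seen. Of the 285 lower genes, 112 (39.3%) had a level under 6.66 (the array median) on the Miz1 kd side, where background compresses a difference, and 173 read above it on both arrays. Of the 33 higher genes, 8 read below the median in Hmhi EGF. A gene that passed the level filter through Hmhi EGF alone had to be higher there, so these counts are descriptions. Among the 6799 genes that did not pass, 40 were at least 2-fold lower and 3 at least 2-fold higher.

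**Figure D1:**
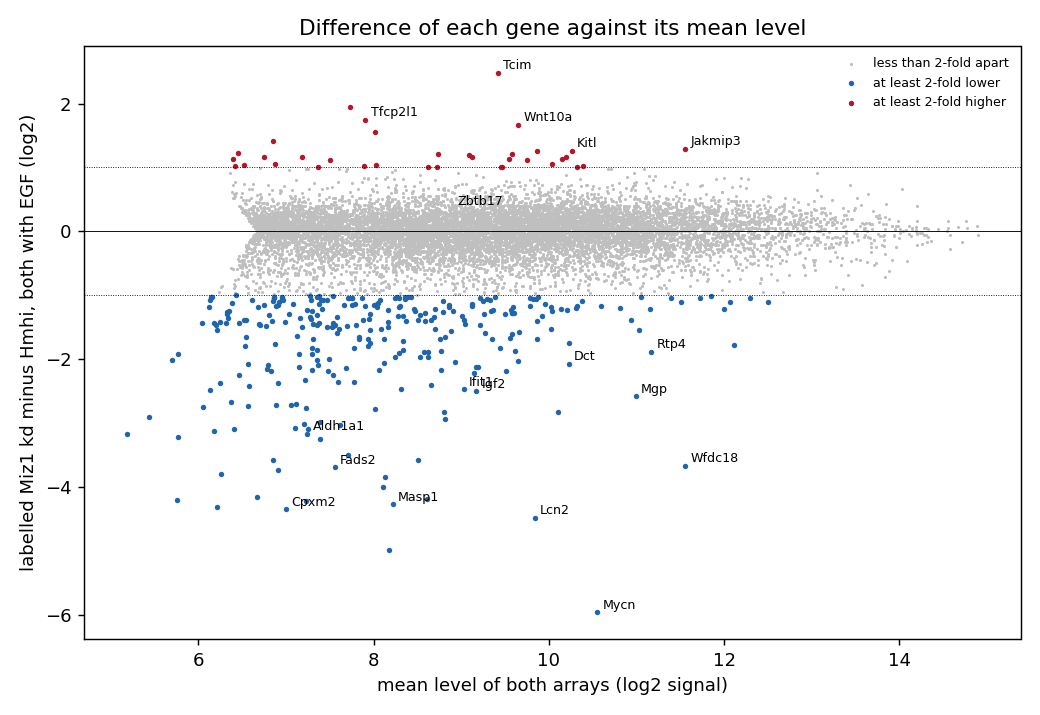
Each point is 1 of 11394 genes, with the mean level of both arrays (log2 signal) on the horizontal axis and the log2 difference, array labelled Miz1 kd minus Hmhi EGF, on the vertical axis; dotted lines mark a 2-fold difference. The 285 genes in blue below the lower line reach down to Mycn at -5.96, while the 33 genes in red end at Tcim at 2.48, and Zbtb17 lies above 0 at 0.35.

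At the lower threshold, Elovl4 at -1.006 and Ifi27 at -1.008 were just inside, and Jazf1 at -0.996, Kcna1 at -0.993 and Adcy1 at -0.991 just outside. At the upper one, Smim38 at 1.013 was inside and Stum at 0.998 outside. Gaps this small are far below the technical SD.

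Genes of the type I interferon response were lower as a group. These genes are switched on by interferon, through a DNA element called ISRE in their promoters. Of 49 measured members, 18 were at least 2-fold lower and none higher, 45 were below 0, and the median was -0.76. Over all genes 2.5% were at least 2-fold lower, 47.5% were below 0 and the median was 0.018. Ifit1 and Ifit3, which encode proteins that bind viral RNA, and Trim30a, an interferon-induced TRIM protein, stood among the lowest with Cmpk2, a mitochondrial nucleotide kinase induced by interferon. Their promoters are shown because these members were lower together. Each runs 5′ to 3′ on the strand of its gene, from 250 bases before to 50 after the RefSeq start (GRCm38.p6), and capitals mark matches to the ISRE core, which is TTTC, any 2 bases and TTTC. The first is at chr19:34640639-34640938 (plus strand), the second at chr19:34583279-34583578 (plus), the third at chr7:104465144-104465443 (minus; 1 of 2 listed for the gene) and the fourth at chr12:26468965-26469264 (plus).
Ifit1: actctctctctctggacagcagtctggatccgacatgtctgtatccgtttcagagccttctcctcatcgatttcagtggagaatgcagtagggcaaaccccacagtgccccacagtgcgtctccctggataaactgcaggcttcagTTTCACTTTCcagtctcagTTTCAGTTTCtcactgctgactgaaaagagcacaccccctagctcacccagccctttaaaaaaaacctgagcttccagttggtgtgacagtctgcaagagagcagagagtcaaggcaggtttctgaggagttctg
Ifit3: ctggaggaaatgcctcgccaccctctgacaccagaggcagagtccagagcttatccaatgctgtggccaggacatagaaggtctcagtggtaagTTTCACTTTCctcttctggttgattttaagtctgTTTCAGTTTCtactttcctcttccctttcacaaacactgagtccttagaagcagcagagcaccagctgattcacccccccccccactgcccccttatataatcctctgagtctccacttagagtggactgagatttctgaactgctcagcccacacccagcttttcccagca
Trim30a: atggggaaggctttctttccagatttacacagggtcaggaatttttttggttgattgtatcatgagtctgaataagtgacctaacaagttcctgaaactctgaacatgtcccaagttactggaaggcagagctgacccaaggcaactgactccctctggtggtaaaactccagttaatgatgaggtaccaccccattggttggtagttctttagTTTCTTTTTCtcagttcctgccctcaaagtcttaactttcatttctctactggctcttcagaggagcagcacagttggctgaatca
Cmpk2: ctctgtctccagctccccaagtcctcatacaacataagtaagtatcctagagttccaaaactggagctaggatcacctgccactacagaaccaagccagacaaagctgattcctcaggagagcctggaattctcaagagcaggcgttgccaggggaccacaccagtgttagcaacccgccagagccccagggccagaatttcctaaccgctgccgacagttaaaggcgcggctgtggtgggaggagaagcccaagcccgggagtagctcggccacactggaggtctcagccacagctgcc
Ifit1 held 2 matches, beginning at -104 and -85 from the start, Ifit3 held 2 and Trim30a 1. The Cmpk2 window held none, and neither did that of Oasl2, which was searched in the same way but is not printed. That says only that these letters are not in them. Searched on both strands, the core was in 47.2% of the 36 measured interferon genes with a listed promoter, in 3.53% of all 9255 measured genes with one and in 3.99% of 27025 genes in the table. Among all genes at least 2-fold lower it was in 20 of 223 (8.97%), and among those at least 2-fold higher in 0 of 25. A match is a description of the sequence and not a binding site.

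Ifit1 read 8.06, 10.26, 7.80 and 9.91, a difference of -2.47 or 5.52-fold. Trim30a read 6.09, 8.21, 6.39 and 6.49, and Ifit3 10.29, 10.38, 8.77 and 9.97. For Ifit1 the array labelled Miz1 kd was as low as Hmhi starved, with the other EGF arrays near each other and above. Trim30a was low in MYC-TA as well, and Ifit3 was low in the array labelled Miz1 kd while the other 3 stood within a narrow band. Rtp4, a chaperone of receptors at the cell surface, read 9.69, 12.11, 10.22 and 11.80. Oasl2, of the oligoadenylate synthetase family, read 5.69, 8.28, 6.78 and 7.72, and Usp18, which removes ISG15 and restrains interferon signalling, 7.52, 10.59, 9.26 and 9.72. All 3 were lowest in Hmhi starved and lower in the array labelled Miz1 kd than in either other EGF array. Ifi27l2a was at -1.97, Cmpk2 at -1.68, Sp110 at -1.46, Trim34a at -1.33 and Iigp1, an immunity-related GTPase, at -1.28. A second passing probe set of Sp110 was at 0.03, so that gene rests on 1 of its sets. The antiviral genes Rsad2, Bst2 and Oas2 were at -1.22, -1.04 and -1.01. Irf9, a transcription factor that acts at the ISRE, was at -1.02, and Stat2, another factor of the interferon response, at -0.22. Irf7 at -0.05, Irf1 at 0.19 and Gbp2 at 0.14 lay within the technical SD, and Uba7, which activates ISG15, was at 0.56. The list held its low median in genes of other chromosomes than 19, at -0.63 with 15 of 46 at least 2-fold lower, and its median ranged from -0.79 to -0.61 over the alternatives run. The Hmhi EGF array is one side of this difference. Over the list the median level was 8.69, 9.38, 8.55 and 8.69, so Hmhi starved and MYC-TA also stood below Hmhi EGF. Against Hmhi starved, the array labelled Miz1 kd was lower on Ifit1 and Ifit3 and higher on Rtp4, Usp18 and Oasl2, as the levels above show.

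Antigen presentation genes, which load peptides onto MHC class I for display to T cells, had 17 measured members with a median of -0.46. Of these 16 were below 0, against 47.5% of all genes. At least 2-fold lower were 3 (17.6%, against 2.5% of all genes), and none was higher. Over the list the median level was 9.37, 10.63, 9.49 and 9.42, so MYC-TA was as low as the array labelled Miz1 kd. Psmb9, a subunit of the immunoproteasome, read 7.02, 9.54, 7.08 and 8.84. H2-M3, a class I molecule, read 6.46, 8.96, 6.60 and 8.19, and Tap1, a subunit of the peptide transporter, 7.55, 10.66, 9.42 and 10.00. Psmb9 and H2-M3 stood near their starved levels in the array labelled Miz1 kd, and Tap1 did not. A second probe set of Tap1 was at -0.34. The class I heavy chains H2-K1 and H2-D1 were at -0.84 and -0.71, and Psmb8 at -0.92. The 4 passing sets of H2-K1 ranged from -3.44 to -0.84, and sets of these similar genes can share targets. Cd74, the invariant chain of MHC class II, was the member above 0, at 0.55.

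Sterol synthesis genes were also lower, by less. The pathway makes cholesterol from acetyl-CoA and is driven by SREBP-2. Of 25 measured members 23 were below 0, against 47.5% of all genes, with a median of -0.34. At least 2-fold lower were 4 (16%, against 2.5% of all genes), and none was higher. With each chromosome centred on its own median, 2 were at least 2-fold lower and the list median was -0.37. Tm7sf2, a sterol reductase, read 8.50, 10.20, 8.51 and 9.43. Insig1, which retains SREBP in the endoplasmic reticulum, read 10.20, 10.91, 9.74 and 10.08. Idi1, an isomerase of isoprenoid units, read 9.63, 8.58, 7.43 and 8.63, and Hmgcs1, HMG-CoA synthase, 11.38, 10.38, 9.32 and 10.40. Idi1 and Hmgcs1 were thus lowest in the array labelled Miz1 kd of all 4, with Hmhi EGF and MYC-TA close together. All 4 passing sets of Hmgcs1 lay between -1.31 and -1.03. The list as a whole did not share this order. Its median level was 10.33, 10.38, 9.77 and 9.73, with MYC-TA as low as the array labelled Miz1 kd. Sc5d, Msmo1, Cyp51 and Fdps were at -0.97, -0.86, -0.82 and -0.78. The transcripts of the regulators hardly differed: Srebf2 was at -0.03 and Srebf1 at 0.03. SREBP works at such promoters with the CCAAT-binding factor NF-Y. The Tm7sf2 promoter (chr19:6067801-6068100, minus strand, GRCm38.p6) is given with its match to GCCAATC, in reverse, in capitals.
Tm7sf2: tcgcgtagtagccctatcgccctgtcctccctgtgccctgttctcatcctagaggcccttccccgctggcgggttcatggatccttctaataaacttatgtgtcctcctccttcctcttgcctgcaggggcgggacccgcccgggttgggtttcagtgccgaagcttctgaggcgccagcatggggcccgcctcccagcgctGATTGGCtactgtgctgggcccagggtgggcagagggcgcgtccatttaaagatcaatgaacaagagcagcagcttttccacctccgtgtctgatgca
On either strand GCCAATC was in 57.1% of 21 measured sterol genes with a listed promoter, in 3 of the 4 lower ones, and in 12% of all measured genes.

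In fatty acid synthesis and desaturation, 6 of 26 measured genes (23.1%, against 2.5% of all genes) were at least 2-fold lower and none higher. Their median was -0.47. Fads2, the delta-6 desaturase, read 8.47, 9.40, 5.71 and 10.60, a difference of -3.69 or 12.9-fold, and its other passing sets were at -2.14 and -1.86. Fads1, its neighbour on chromosome 19, was at -0.08. Scd3 read 5.69, 6.93, 5.47 and 7.0, and Scd1, the main stearoyl-CoA desaturase, 10.83, 11.84, 10.87 and 11.88. For these 3 desaturases the array labelled Miz1 kd was near or below Hmhi starved, and MYC-TA near or above Hmhi EGF. Fads6, which is not on the list, read 7.91, 8.09, 6.62 and 7.36, with MYC-TA below Hmhi EGF. Acss2, Agpat2, Dgat2 and Elovl4 were at -1.09, -1.06, -1.06 and -1.01, and a second set of Dgat2 was at -0.35. Fasn, the fatty acid synthase, was at -0.01. Of the 26 genes 7 lie on chromosome 19. Without them the list median was -0.16, with 4 of 19 at least 2-fold lower. With each chromosome centred on its own median it was -0.32. Among LXR targets and lipid transport genes 3 of 17 (17.6%) were at least 2-fold lower. They were Apoc1 at -1.34 and the fatty acid binding proteins Fabp7 and Fabp5 at -1.15 and -1.11. Apoe stood at 12.05 in Hmhi EGF and 12.16 in the array labelled Miz1 kd.

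Genes of chromosome 19 were lower as a whole. The 406 measured genes of that chromosome had a median of -0.29 with quartiles of -0.56 and -0.06, 80.8% were below 0, and 38 (9.36%) were at least 2-fold lower against none higher. At 1.5-fold 95 were lower and 4 higher. Of its 712 probe sets past the filter, 547 (76.8%) were below 0. The brighter members had a median of -0.29 and the dimmer -0.28. It ran along the whole chromosome: in 8 blocks of consecutive genes the medians went from -0.13 and -0.14 in the first 2 to -0.41 and -0.40 in the sixth and eighth, all below 0. Chromosomes 13 and 12 followed at medians of -0.18 and -0.17, with 18 (4.31%) and 17 (4.38%) of their genes at least 2-fold lower, and chromosome 16 at -0.10. At the other end were chromosomes 18 and 10, at 0.17 and 0.16. Chromosomes 12, 13, 16 and 19 held 13.9% of the genes measured and 84 of the 285 lower ones (29.5%). Without chromosome 19, 247 of 10988 genes (2.25%) were at least 2-fold lower. The median of chromosome 19 stayed between -0.31 and -0.13 over the alternatives run.

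**Figure D2:**
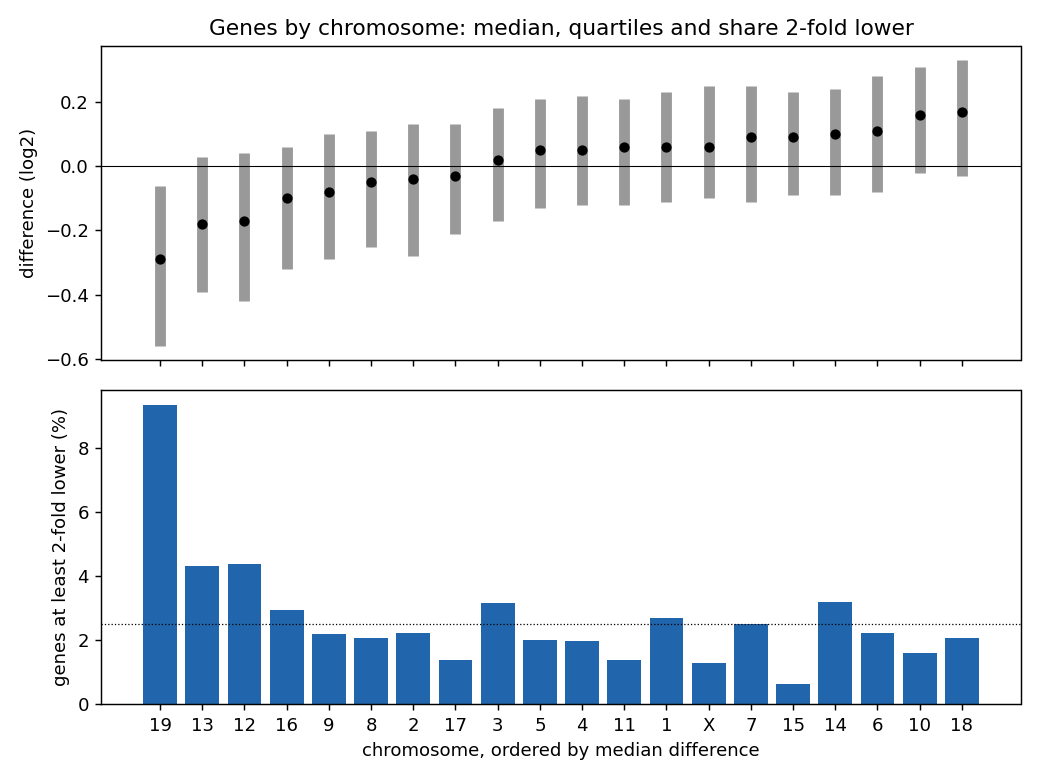
Above, the median (point) and quartiles (bar) of the log2 difference, array labelled Miz1 kd minus Hmhi EGF, for the measured genes of each chromosome, ordered by median; below, the percentage of those genes at least 2-fold lower, with a dotted line at 2.5% for all genes. Chromosome 19 stands at the left with a median of -0.29 and 9.36%, and chromosome 18 at the right with 0.17 and 2.08%.

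On the other pairs of arrays, the median of chromosome 19 was 0.06 for Hmhi EGF minus Hmhi starved, -0.19 for the array labelled Miz1 kd minus Hmhi starved, and 0.41 for MYC-TA minus Hmhi EGF. The first pair differs in treatment and shares the cells. The second differs in both, and the third differs in the cells and shares EGF. These pairs share arrays, so the values stand side by side and are not independent. The cause of the shift was not tested. Among the lower genes on chromosome 19, Ms4a4d read 7.52, 9.01, 5.76 and 10.85, and Hectd2, a probable ubiquitin ligase, 4.77, 6.77, 3.60 and 8.36. Both were lowest in the labelled knockdown and highest in MYC-TA, the order that the medians of the chromosome also had among the EGF arrays. Pdcd4, an inhibitor of translation, was at -1.17, Pdlim1 at -1.12 and Shoc2, a scaffold of the RAS to RAF step, at -1.14, though a second set of Shoc2 was at -0.18. After each gene was set against the median of its chromosome, 20 (4.93%) of the 406 were still at least 2-fold lower.

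Lower genes also lay next to each other. In the order of measured genes along the chromosomes, 23 runs of at least 2 neighbours were each at least 2-fold lower, 53 genes in all. No such run was found for higher genes, but with 33 of them against 285 lower ones few could be met. How many runs position alone would give was not worked out. Several held related genes: Ifit2, Ifit3 and Ifit1bl1; Psmb9 and Tap1; Aldh1a1 and Aldh1a7; Oasl2 and Oasl1; Gzme and Gzmd; and Ifi27l2a and Ifi27. Trim34a, Trim12c, Trim30a and Usp17la formed a run of 4 on chromosome 7, and Rsad2, Cmpk2 and Sox11 one of 3 on chromosome 12. Others joined genes of unlike kind, such as Masp1 and Rtp4 on chromosome 16, Cpxm2 and Chst15 on chromosome 7, and Cyria and Mycn on chromosome 12. Probe sets of near-identical relatives can share RNA, so runs of related genes are not separate measurements.

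Mycn, the neuronal relative of Myc, had the largest difference of any gene when each gene was read on its brightest probe set, and it rested on 1 of its 3 sets. Off the brightest sets Bpifb9b went further, to -7.08. The brightest set read 13.32, 13.53, 7.57 and 13.68, 62.2-fold below Hmhi EGF in the labelled knockdown, with the other 3 arrays close together. The next read 5.56, 6.97, 6.84 and 7.22, and the last 5.88, 5.63, 5.84 and 5.79. These 2 read near the array median or below it on every array, at differences of -0.12 and 0.21, so they shared neither the high level nor the drop. Averaged over the 3 sets the difference was -1.96. Which set follows the Mycn transcript was not tested. Its neighbour Cyria read 4.98, 9.15, 6.98 and 9.14, a difference of -2.17 with a starved level far below the EGF level, unlike Mycn. On the other side Ddx1 and Nbas were at -0.26 and 0.08, and Trib2, a pseudokinase further along, was at -1.53.

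The rest of the MYC and Miz-1 network differed little. Apart from Mycn, no other of 18 measured members was 2-fold apart, and the list median was 0.12. Myc read 10.64, 10.60, 10.79 and 9.78, and its partner Max 7.96, 7.13, 7.03 and 7.91. Mycl stayed below the median on the first 3 arrays, at 5.95, 6.31 and 6.08, and reached 7.05 in MYC-TA. Huwe1, a ubiquitin ligase that acts on MYC and Miz-1, was at 0.49, and Aurka, a mitotic kinase that stabilizes MYCN protein, at -0.73. Among 18 CDK inhibitors and genes repressed through Miz-1, 9 were below 0 and the median was 0.04. Cdkn1a, the p21 inhibitor, read 8.12, 10.29, 9.49 and 10.11, a difference of -0.80. Cdkn2b, the p15 inhibitor and a textbook target of Miz-1, read 9.18, 8.74, 9.31 and 8.49, higher by 0.57. These classical targets of the pair thus stood on opposite sides of 0. Gadd45a, a growth-arrest gene, was at 0.98. Clu and Ndrg2 were at -1.89 and -1.5, and the 4 passing sets of Clu ranged from -4.30 to -1.28. Genes of autophagy and vesicle fusion had a median of 0.02 over 34 members with none 2-fold apart. Vamp4 was at -0.17.

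Probe sets of 1 gene could be compared for 91 of the 285 lower genes with more than 1 passing set. Every passing set was at least 2-fold lower for 46 of them, 87 had all sets of the same sign and 4 had a set of the opposite sign. For 194 lower genes a single set passed. Among the 33 higher genes 10 had several passing sets, all of the same sign, and 2 had every set past 2-fold. Mfsd13a was among the least even, at -4.15 on 1 set and 0.09 and 0.11 on the others. Bpifb9b was even in direction, at -4.98 and -7.08. Averaged over all probe sets of the gene, passing or not, several of the largest differences shrank: Cpxm2 to -2.76, Ptgfrn to -2.29, Nfe2l3 to -1.66, Col9a1 to -1.87, Cdon to -1.58, Igf2 to -1.35 and Kitl to 0.73.

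**Figure D3:**
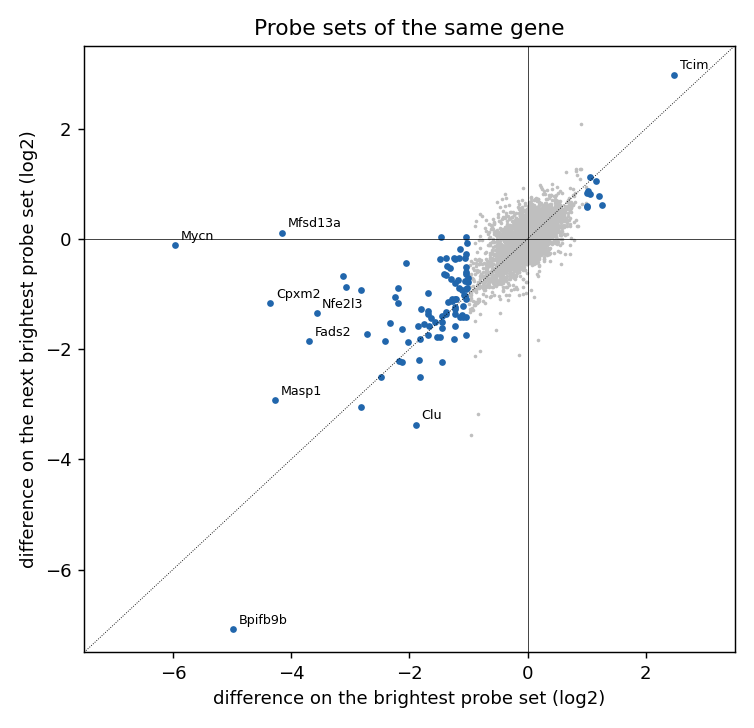
Each point is a gene with at least 2 passing probe sets, with the log2 difference (array labelled Miz1 kd minus Hmhi EGF) on its brightest set along the horizontal axis and on its next brightest along the vertical axis; blue points are at least 2-fold apart on the brightest set and the dotted diagonal marks equality. Mycn at -5.96 and -0.12 and Mfsd13a at -4.15 lie on or near the horizontal zero line, while Tcim lies near the diagonal and Bpifb9b, at -4.98 and -7.08, below it.

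Several genes of secreted proteins were far apart. No list of secreted proteins was behind them, but Lcn2, Wfdc18 and Masp1 are each on a list of another kind. Lcn2, a siderophore-binding protein of innate immunity, read 5.33, 12.08, 7.60 and 10.79, 22.3-fold lower than Hmhi EGF yet above the starved level. Wfdc18, a secreted protein with a whey acidic protein domain, read 8.27, 13.39, 9.71 and 13.07. Bpifb9b, of a family of lipid-binding secreted proteins, read 7.71, 10.67, 5.69 and 9.08. Lcn2 and Wfdc18 lay between the starved and the EGF level in the array labelled Miz1 kd, and Bpifb9b below both. Masp1, a protease of the lectin pathway of complement, read 9.41, 10.36, 6.08 and 11.21, and averaged over all its sets the difference was -1.90 in place of -4.27. Of 12 measured complement genes 2 (16.7%, against 2.5% of all genes) were at least 2-fold lower, Masp1 and Clu, and none higher. Among extracellular proteases and their inhibitors 4 of 38 (10.5%) were lower and none higher, with a median of -0.15. Besides Wfdc18, these were the cystatins Cst6 and Cst3 at -1.53 and -1.11 and the serine protease Prss23 at -1.53. Mmp11 was at 0.98 and Mmp2, a gelatinase, at -0.95.

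Of 51 measured collagens and matrix proteins 9 (17.6%, against 2.5% of all genes) were at least 2-fold lower and none higher. With 27 below 0 and a median of -0.05, the list held a few strongly lower genes rather than a common shift. Col2a1, the main collagen of cartilage, read 7.39, 10.05, 6.21 and 9.48. Cytl1, a cytokine-like protein found in cartilage, read 6.38, 10.11, 6.11 and 8.95, and Cpxm2, a carboxypeptidase-like protein, 6.80, 9.17, 4.83 and 9.25. All 3 were below their starved level in the array labelled Miz1 kd and high in both other EGF arrays. A second set of Cpxm2 was at -1.17. Mgp, an inhibitor of calcification, read 11.07, 12.28, 9.70 and 14.58, and Col9a1 8.79, 10.21, 7.39 and 11.53. Mgp and Col9a1 stayed above the array median on every array. Postn, Ecm1 and Sned1 were at -1.30, -1.20 and -1.55. Col6a1, Col6a2, Nid2 and Emilin1 were on the other side, at 0.65, 0.74, 0.74 and 0.79. The fibroblast markers beside them had a median of -0.60 over 7 measured of 18 listed, with Postn at -1.30 and Pdgfrb at 0.98. With no level filter that median was -0.01. Their part in the matrix values was not tested. Ccn2, a matricellular target of YAP, read 9.25, 9.41, 6.63 and 10.40, the single member 2-fold apart of 34 actin and SRF or YAP target genes. Ptgfrn, a membrane partner of tetraspanins, read 4.16, 8.37, 4.06 and 8.16 and was the single adhesion gene of 41 past 2-fold. Such single members were 2.94% of the actin list and 2.44% of the adhesion list, near the 2.5% of all genes.

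**Figure D4:**
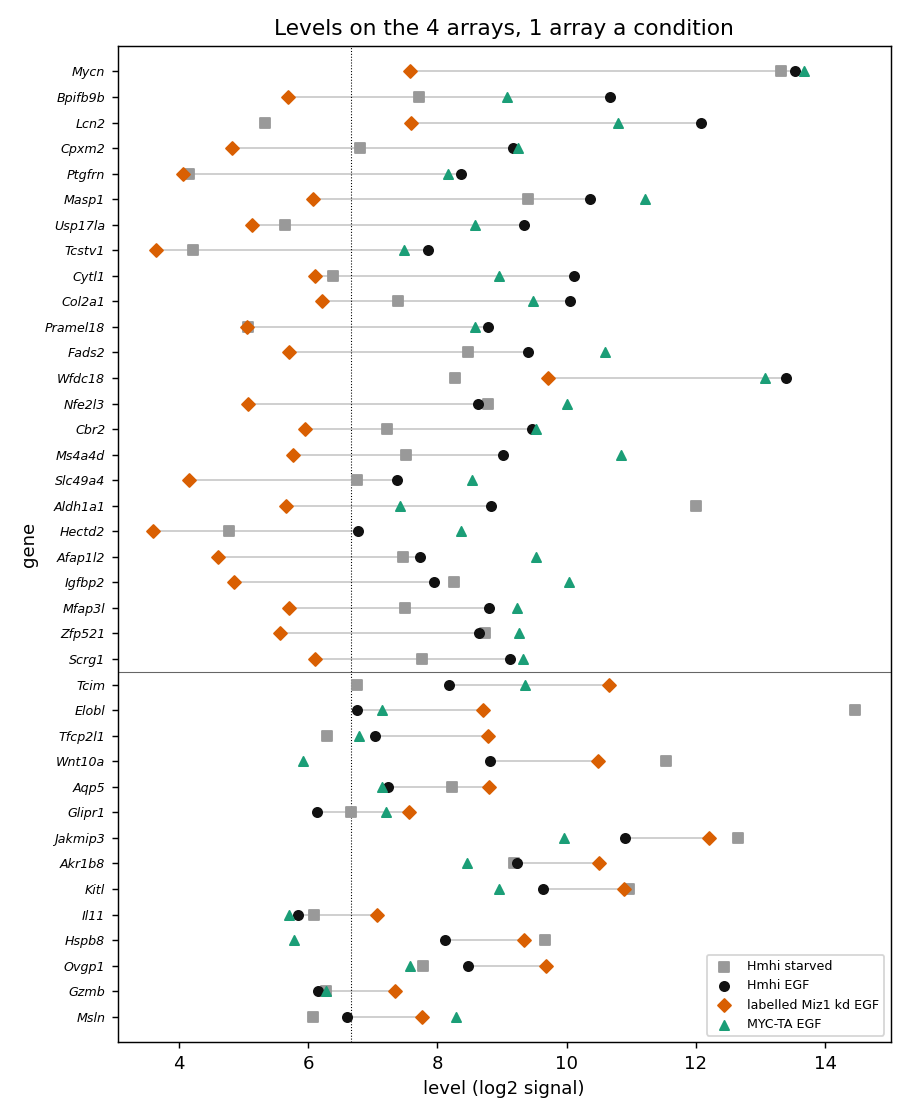
Levels (log2 signal) on the 4 arrays for 24 of the genes with the most negative and 14 of those with the most positive difference, 1 gene a row; grey squares are Hmhi starved, black circles Hmhi EGF, orange diamonds the array labelled Miz1 kd and green triangles MYC-TA, with a dotted line at the array median of 6.66. For genes such as Col2a1, at 10.05 and 9.48 against 6.21, MYC-TA lies with Hmhi EGF and away from the array labelled Miz1 kd.

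Growth factor genes differed in single members. Igf2, an imprinted growth factor, read 8.52, 10.42, 7.92 and 9.11, and a second set of it, below the filter, was at -0.20. Igfbp2, which binds IGFs, read 8.26, 7.95, 4.86 and 10.04. Igf2 and Igfbp2 were lowest in the array labelled Miz1 kd, while Igf2r, the receptor that clears IGF2, was at 0.78 and Igfbp5 at 0.85. The median of the 17 IGF genes was -0.12 and changed sign, to 0.17, under a filter at the 75th percentile. Among 46 receptor tyrosine kinases and ligands, 4 (8.7%, against 2.5% of all genes) were at least 2-fold lower and 1 higher. Their median was 0.03. Gas6, the ligand of the TAM receptors, read 6.85, 8.41, 6.32 and 9.09. Its relative Pros1 was at -0.94, and of the receptors Mertk was at -0.88, Tyro3 at -0.58 and Axl at 0.23. Efna1 and Tgfa were at -1.16 and -1.04, and a second set of Tgfa was at 0.04. Kitl, the ligand of KIT on which melanocytes depend, read 10.97, 9.63, 10.89 and 8.95, with its 3 passing sets between 0.61 and 1.26. Kit itself was at -0.66. Pdgfrb and Ddr2 were at 0.98 and 0.92.

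Egfr, the receptor of the ligand given, read 8.11, 8.16, 8.32 and 8.17, a difference of 0.16, and its second passing set was at 0.58. Of 40 ERK feedback and immediate early genes none was 2-fold apart and the median was -0.05. Dusp6, a phosphatase induced by ERK, read 11.16, 12.73, 12.68 and 12.46. Etv5, another ERK-induced gene, read 9.40, 12.51, 11.89 and 12.11, a difference of -0.61, with its 3 passing sets between -0.97 and -0.61. Both were above Hmhi starved in the array labelled Miz1 kd, and Dusp6 was near Hmhi EGF. Fosl1 at 0.97 and Klf4 at -0.64 had the largest differences on this list.

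In the WNT pathway Tcim, a positive regulator of the pathway, read 6.76, 8.18, 10.65 and 9.35, the largest positive difference of all, with its second set at 2.98. Wnt10a, a ligand, read 11.54, 8.82, 10.48 and 5.92, and Fzd9, a receptor, 6.82, 8.91, 7.42 and 8.99. Tcim was highest in the array labelled Miz1 kd of all 4, while Wnt10a lay between the starved and the EGF level there. The 33 measured members had a median of 0.00. In the TGF-beta and BMP pathway Fstl1 and Tgfbi were at -1.82 and -1.38. Of its 34 measured members 2 (5.88%, against 2.5% of all genes) were at least 2-fold lower and none higher. Grem1, a BMP antagonist, was at 0.96 and Id3, a BMP target, at -0.91. Of 29 chemokines, interleukins and growth cytokines 2 (6.9%) were at least 2-fold lower, Lcn2 and Il33 at -4.48 and -1.39, and 2 higher, Kitl and Il11. Il11 read 6.09, 5.84, 7.07 and 5.70, so it passed the median in the labelled knockdown alone.

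Melanin synthesis genes were mixed. Of 28 measured members 1 (3.57%, against 2.5% of all genes) was at least 2-fold lower and none higher, and the median was 0.02. Dct, which encodes dopachrome tautomerase, read 9.79, 11.26, 9.19 and 11.08. Tyrp1, a related enzyme, read 14.09, 13.07, 13.80 and 13.05, and Pmel, the fibril protein of the melanosome, 7.11, 8.62, 7.73 and 8.06. Dct and Pmel were thus lower and Tyrp1 was higher by 0.73, each nearer to Hmhi starved than Hmhi EGF was. Oca2 and Rab38 were at 0.72 and 0.76. Among 35 regulators and markers of melanocytes and neural crest 4 (11.4%) were lower and 2 higher. Bcan, a brain proteoglycan, read 7.17, 10.61, 8.42 and 11.35, and Rragd, a GTPase of the mTORC1 pathway, 5.01, 7.92, 5.75 and 8.95. St3gal6 was at -2.03 and Ptprz1 at -1.04. Tfcp2l1, a transcription factor, read 6.30, 7.03, 8.78 and 6.79 and was higher, as was Kitl.

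Genes normally expressed in the early embryo or germline gave the lowest list median, -1.12, over 9 measured of 41 with a probe set, so most of the list did not pass the level filter. Of the 9, 5 (55.6%, against 2.5% of all genes) were at least 2-fold lower and 1 higher. Each of the 5 read below the array median of 6.66 in the array labelled Miz1 kd. They entered only through Hmhi EGF, where they were high, so their direction was given by the filter. The share and the median of the 9 are therefore descriptions only. Usp17la read 5.65, 9.34, 5.13 and 8.58, Tcstv1 4.22, 7.86, 3.65 and 7.48, and Pramel18 5.07, 8.78, 5.05 and 8.59. All 3 were near their starved levels in the array labelled Miz1 kd and high in both other EGF arrays, and each belongs to a family of similar genes whose RNA a set may share. Zfp352 was at -2.17, with its second set at -2.21. Ddx4, an RNA helicase of germ cells, read 9.17, 6.94, 5.82 and 9.66. Elobl read 14.47, 6.76, 8.71 and 7.14 and was the higher member. With no level filter the list median was -0.01. Of 16 imprinted genes 3 (18.8%) were lower and none higher, Igf2, Mest at -2.41 and Ppp1r9a at -1.45, while Plagl1 was at 0.91.

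Of 15 measured retinoid genes 4 (26.7%, against 2.5% of all genes) were lower and 1 higher. With 7 below 0 and a median of 0.02, the list had no common shift. Without chromosome 19, 2 of 13 were at least 2-fold lower. Aldh1a1, which makes retinoic acid, read 12.00, 8.83, 5.66 and 7.43. Its relative Aldh1a7, next to it on chromosome 19, read 9.99, 8.61, 7.54 and 8.21. Both were highest in Hmhi starved and lowest in the array labelled Miz1 kd. Tgm2 and Rdh11 were at -1.38 and -1.05, and Rdh5, a retinol dehydrogenase, at 1.13. Antioxidant, glutathione and sulfur amino acid genes had a median of -0.04 over 42, with 2 (4.76%) lower and 1 higher. Nfe2l3, a relative of NRF2, read 8.79, 8.63, 5.07 and 10.01, and its second passing set was at -1.35. Akr1b8, an aldo-keto reductase, was at 1.26 and Mgst3, a microsomal glutathione transferase, at -1.04. Cth read 4.34, 5.18, 6.20 and 8.30. It was thus higher by 1.02 than in Hmhi EGF, but both levels lay below the array median, it did not pass the level filter and it is not among the 33.

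Of the 33 higher genes, 30 had a gene name. Aqp5, a water channel, read 8.23, 7.24, 8.80 and 7.15. Jakmip3 read 12.65, 10.91, 12.20 and 9.96, and Hspb8, a small heat shock protein, 9.66, 8.12, 9.34 and 5.78. All 3 were near Hmhi starved in the labelled knockdown and lower in both other EGF arrays. Other higher genes did not show this order: Akr1b8 read 9.18, 9.24, 10.50 and 8.46, and Gzmb, a granzyme, 6.27, 6.16, 7.34 and 6.28, each highest in the array labelled Miz1 kd. Msln, mesothelin, read 6.08, 6.60, 7.76 and 8.29, highest in MYC-TA. Glipr1 was at 1.42, Ovgp1 at 1.20 and Nrp2, a receptor of semaphorins and VEGF, at 1.16 with its 4 passing sets between 0.74 and 1.16.

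Among lower genes outside the lists, Cdon, a co-receptor of hedgehog signalling, read 7.91, 10.28, 7.34 and 10.47. Slit2, a guidance cue, read 9.55, 7.93, 5.20 and 9.23, and its receptor Robo1 7.99, 9.57, 7.68 and 9.26. Slit2 and Robo1 were both lowest in the array labelled Miz1 kd, though Slit2 was higher in Hmhi starved than in Hmhi EGF and Robo1 the reverse. Mef2c, a transcription factor, was at -2.33 with its 4 passing sets between -2.33 and -1.53. Ppargc1a, a coactivator of mitochondrial genes, was at -1.86 with 5 sets between -1.94 and -1.40. Dll1, a Notch ligand, was at -1.92, Arg2, an arginase, at -2.75 and Dpysl3 at -2.82.

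Growth machinery differed by small amounts. Of 47 S phase genes 34 were below 0, against 47.5% of all genes, with a median of -0.12 and 1 (2.13%, against 2.5% of all genes) at least 2-fold lower, Rrm2, a subunit of ribonucleotide reductase, which read 8.69, 9.34, 8.25 and 10.05. Of 44 mitotic genes 33 were below 0, with a median of -0.13 and none 2-fold apart; Ube2c was at -0.94 and Anln at -0.89. Mki67, a marker of cycling cells, read 10.44, 11.97, 12.01 and 12.30. Ribosome biogenesis genes had a median of 0.19 over 50, with 16 below 0 and none 2-fold apart. Lists of the ATF4 and ER stress response, p53 targets, glycolysis and hypoxia, histone and chromatin regulators, and S100 proteins and annexins had no member 2-fold apart and medians of 0.10, 0.00, 0.11, -0.03 and 0.09. Lysosomal genes had a median of -0.13 with Sgsh, a sulfamidase, at -1.13, and heat shock genes -0.02 with Hspb8 as the member past 2-fold. In the ATF4 and ER stress list Dnajb9, a chaperone, was at -0.89 and Shmt2, of serine metabolism, at 0.76.

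**Figure D5:**
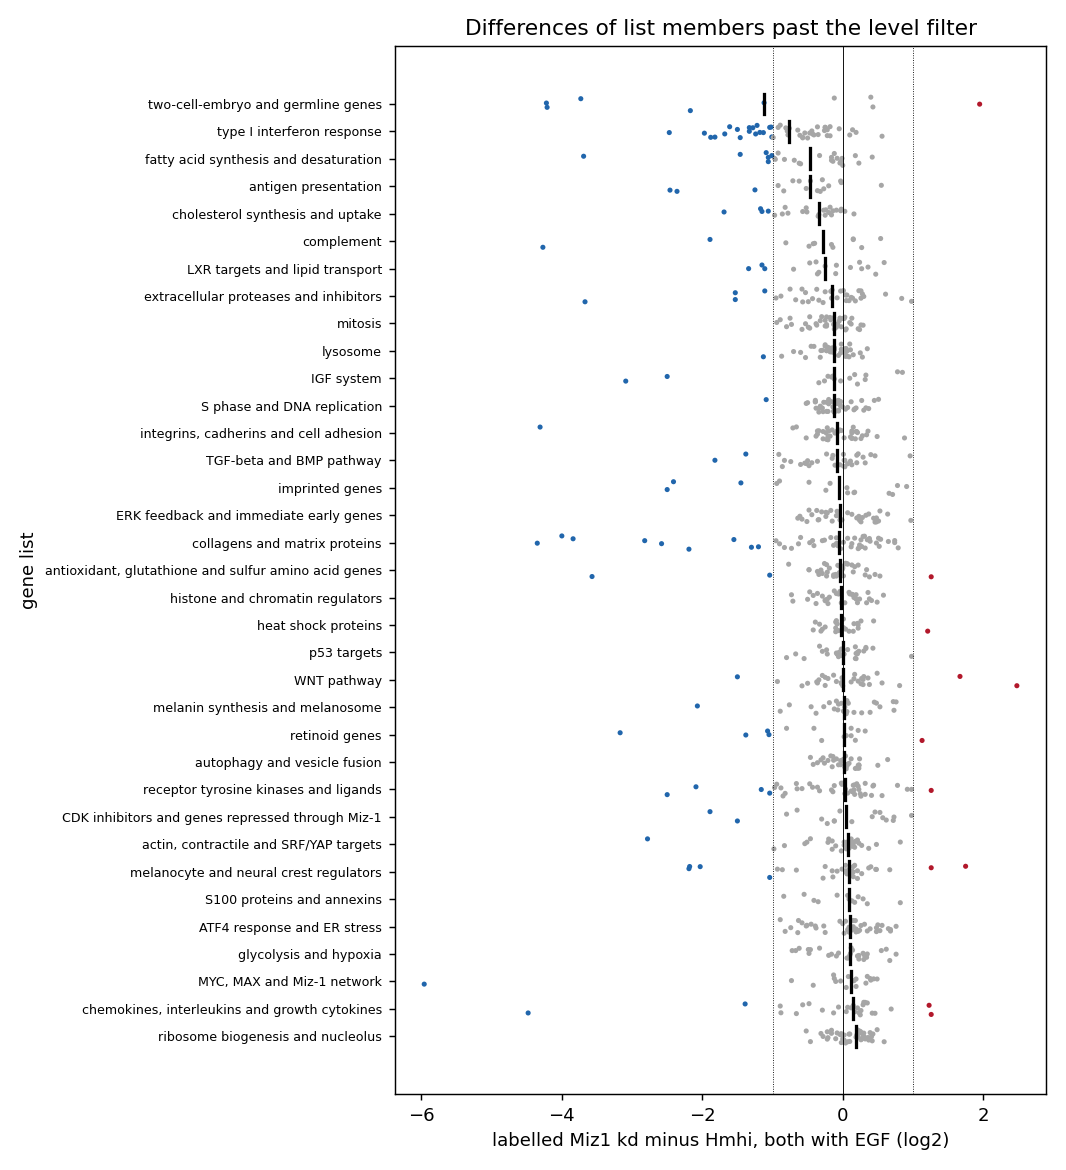
Each point is a measured gene of a list, with its log2 difference, array labelled Miz1 kd minus Hmhi EGF, on the horizontal axis; blue points are at least 2-fold lower, red at least 2-fold higher, dotted lines mark the 2-fold thresholds and black bars the list medians. Interferon genes centre on -0.76 with no red point, while most lists centre near 0 and differ in a few members.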

How the data were processed

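Total RNA of 4 cultures, 1 a condition, was hybridised to Affymetrix Mouse 430 2.0 arrays after biotinylated cRNA was made from 100 ng of RNA with the IVT-Express kit, per the labels' protocols. The authors deposited 1 value per probe set, taken here as log2 signal from its range of 2.94 to 15.12 over 45101 sets; log base, summarization and normalization are not given in the sources used here. The sorted columns lay within 0.004 of each other, which hides any shift common to all genes. No scaling was added.

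The 2016 platform annotation gave 1 gene for 34945 sets, several for 932 and none for 9160, and 64 were controls. Through Entrez identifiers 34754 sets matched the RefSeq table (GRCm38.p6), used for names, chromosomes and gene order; 0 symbols changed. Promoter sequences and their coordinates are RefSeq's (GRCm38.p6). A gene was represented by its probe set of highest mean level on the 4 arrays, a choice among several for 9010 of 18193 genes. It was measured if the brighter of the 2 arrays reached the median of that array (control sets left out), and counted at 2-fold. No test was possible with 1 array a condition.

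The members and the 40 gene lists were chosen with earlier results of these data known. Genes were named if they were among the 40 most negative or 20 most positive with every passing set of 1 sign, on a list and 2-fold apart, among the 4 largest others of a list, or neighbours both 2-fold lower; Zbtb17, the Myc family, Max and Cth always. Srebf1, Srebf2, Fasn, Fads1, Apoe, the TAM receptors, Egfr, Dusp6, Mitf, Sox10, Tyr, Mki67, Vamp4, Cdkn1a, Cdkn2b, Stat2, Irf1, Irf7, Gbp2, Pdcd4, Pdlim1, Shoc2, Robo1, Mef2c, Ppargc1a, Dll1, Trib2, Mfsd13a and others outside this rule were chosen after their values were seen. Gene models were counted, not named. The steps were tested on simulated data. The tools were matplotlib 3.10.9, statsmodels 0.14.6 (loess), scipy 1.17.1, numpy 2.4.6 and pandas 2.3.3 under Python 3.11.15.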

Additional observations from a re-analysis of the deposited data

Results flagged for a closer look

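Probe sets that no comparison above uses also held differences. Of 2694 probe sets past the level filter with no gene name here, 9 (0.334%) exceeded Hmhi EGF at least 2-fold in the array labelled Miz1 kd. At least 2-fold lower were 25 (0.928%). Over all genes the shares were 0.29% higher and 2.5% lower. Of 586 sets tied to several genes, 3 (0.512%) exceeded Hmhi EGF at least 2-fold, while 28 (4.78%) were at least 2-fold lower. No cause was tested.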

How the results depend on the processing

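No paired analysis was possible because there was a single array per condition, so leaving out an array was not possible either. The counts of 285 lower and 33 higher genes became 142 and 19 with the filter at the 75th percentile, which tests fewer genes, and 796 and 245 at 1.5-fold, a lower threshold. A common median and quantile normalization left them at 285 and 33. The sorted columns already lay within 0.004 of each other, so neither could change the counts much. Loess gave 295 and 29, no filter 325 and 36, the mean of all probe sets 220 and 24, and sets ending in a plain _at 245 and 33. Leaving out chromosome 19 (247 and 33) and centring each chromosome (272 and 28) were chosen after seeing the data. Of 382 values of the 60 genes with the largest differences over these settings, 361 moved by less than 1 technical SD and 21 by more. Most of these settings keep the probe set of a gene on columns already matched, so they could hardly move it. With the mean of all probe sets, which averages in sets that did not pass, 20 moved and 33 did not. Why sets of 1 gene differ was not tested. Of 358 list medians 346 moved by less than that SD. Fatty acid synthesis was at -0.21 under the mean over probe sets and -0.16 without chromosome 19. All 140 chromosome medians moved by less than it, but an SD of 0.22 is wide beside medians of -0.29 to 0.17, so this says little. The median of chromosome 19 ranged from -0.31 to -0.13 and that of chromosome 13 from -0.2 to -0.08. Levels below the array median give little room to a difference.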
